A study of Mus musculus with 9 samples.

Results

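Collagen chain genes were followed in C2C12, a line of mouse myoblasts whose cells fuse to myotubes once serum is lowered, after knockdown of each splice isoform of the histone variant macroH2A1. The members were the protein-coding genes whose GENCODE M21 symbol is Col, a number, a and a number. This rule found 44 genes among the 52780 genes of the deposited count table, and their positions are given on GRCm38. It took no expression value into account.

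All 9 samples were C2C12 cells collected at day 4 of differentiation. The 3 samples named si Ctrl here carry the label Wild Type, and the labels do not name a control siRNA for them, while the study's reagent list includes a scrambled one. The 3 si mH2A1.1 samples received siRNA against the macroH2A1.1 isoform, and the 3 si mH2A1.2 samples received siRNA against the macroH2A1.2 isoform. Each siRNA was used at 10 nM and was delivered repeatedly, before, on the day of and after the change to differentiation medium. The sample labels give the source as myoblast, whereas the protocol describes differentiated cultures. The study describes its replicates as biologically independent, and the labels only number them. Messenger RNA was sequenced, and totals ran from 36924252 to 42223108 counts per sample. Both comparisons with si Ctrl share the same 3 control samples.

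Collagens are extracellular matrix proteins made of intertwined alpha chains, each encoded by its own gene. Fibrillar collagens (types I, II, III, V, XI, XXIV and XXVII) build the fibrils of interstitial matrix. Network collagens (types IV, VIII and X) form sheets, with type IV as the scaffold of basement membranes, including the one that wraps each muscle fibre. Type VI forms beaded filaments that link muscle fibres to their surroundings, and mutations in its chains cause congenital muscular dystrophy. FACIT collagens sit on the surface of fibrils, membrane collagens span the plasma membrane, and type VII makes anchoring fibrils. In muscle most interstitial collagen is made by fibroblasts, but myogenic cells in culture also express collagen genes.

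The feature that joins these genes is a coding sequence rich in repeats of glycine and a pair of other residues, Gly-X-Y. Over the longest coding sequence of each gene, the longest unbroken run of such triplets had a median of 338 triplets in the 11 fibrillar genes, 45 in the 9 network genes and 57 in the 9 FACIT genes. The 4 sequences that follow show the first 60 coding bases of the longest run, spliced, in GRCm38 coordinates with GENCODE M21 exons. They are the 2 chains of type I collagen, whose levels parted in the knockdowns, the network chain Col8a2 with the largest changes, and the FACIT chain Col12a1, which changed in both knockdowns. Capitals mark the glycine codons.

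Col1a1, chr11:94939451-94939909, + strand: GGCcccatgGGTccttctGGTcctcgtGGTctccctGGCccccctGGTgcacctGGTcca

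Col1a2, chr6:4512406-4515486, + strand: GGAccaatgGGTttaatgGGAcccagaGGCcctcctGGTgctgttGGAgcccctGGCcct

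Col8a2, chr4:126311132-126311191, + strand: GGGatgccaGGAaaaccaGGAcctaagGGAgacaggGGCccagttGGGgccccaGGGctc

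Col12a1, chr9:79612919-79613769, - strand: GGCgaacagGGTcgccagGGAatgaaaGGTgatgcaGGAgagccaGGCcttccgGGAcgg

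The run was 338 triplets long in Col1a1 and 339 in Col1a2. It was 60 triplets long in Col8a2 and 32 in Col12a1, in which only 7.63% of the coding residues lay in runs of at least 6 triplets.

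H2afy, which encodes both macroH2A1 isoforms, checked the knockdown first. Its level was 56.3, 62.4 and 61.0 CPM (counts per 1000000 counts of the TMM-scaled library) in si Ctrl, 38.8, 30.0 and 30.9 CPM in si mH2A1.1, and 46.8, 47.2 and 43.2 CPM in si mH2A1.2. It fell with si mH2A1.1 (log2 fold change -0.85 ± 0.11, ± SE as for all fold changes below, adjusted p = 0.00331, edgeR quasi-likelihood test with Benjamini-Hochberg adjustment over 19545 genes). Under si mH2A1.2 H2afy had a log2 fold change of -0.39 ± 0.11, which missed the threshold (adjusted p = 0.108). Counts per gene cannot separate the isoforms, so they do not show how far each isoform was depleted. The paper checked the depletion by immunoblot and reports it as isoform-specific. A gene is called changed below at an adjusted p of 0.05 or less in the edgeR test.

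Myotube markers checked the cell type. The summed level of 10 genes of differentiated muscle, among them Myh3, Acta1 and Mymk, was 13204 to 18560 CPM in si Ctrl, 11727 to 12937 CPM in si mH2A1.1 and 12237 to 15242 CPM in si mH2A1.2. Myh3 (means 6781.0, 4673.1 and 5439.4 CPM in that order) and Acta1 (3621.2, 3423.4 and 3807.1 CPM) held most of this sum in each group. Of 8 fibroblast markers, Tcf21 had under 3 counts in every sample. Their summed level was 395.3 to 572.7 CPM in si Ctrl, 285.9 to 550.4 CPM in si mH2A1.1 and 908.3 to 973.7 CPM in si mH2A1.2. This sum therefore was higher in every si mH2A1.2 sample than in any other sample. Dcn and Pdgfrb held most of it there (means 519.0 and 357.0 CPM), and Dcn was not called against si Ctrl (adjusted p = 0.177). With si mH2A1.2 the log2 fold changes of Lum, Fap and Thy1 were -0.52, -0.48 and -0.0, and that of Pdgfra was 0.53, none of them called. With si mH2A1.1, 2 fibroblast markers fell (Lum and Pdgfrb) and 1 rose (Fap), and with si mH2A1.2, 2 rose (Dpt and Pdgfrb). The summed level of 5 myoblast markers was 1496 to 1934, 2138 to 2799 and 1075 to 1603 CPM in the same order of groups. Des, which is not limited to undifferentiated cells, held most of that sum, at means of 1219.2, 1667.8 and 793.6 CPM. The sum therefore does not measure undifferentiated myoblasts alone. The summed level of 5 proliferation markers was 244.3 to 397.2, 354.7 to 743.1 and 195.5 to 290.6 CPM. The sums of 6 osteoblast markers (29.3 to 75.2 CPM over all samples) and 6 chondrocyte markers (42.9 to 51.4 CPM) were low, and Ibsp, Acan and Matn1 had under 3 counts in every sample. With si mH2A1.1, 1 osteoblast marker (Runx2) and 2 myotube markers (Myog and Actn2) fell and 1 proliferation marker (Birc5) rose. With si mH2A1.2, 2 myotube markers (Tnnt3 and Actn2) and 2 myoblast markers (Myf5 and Des) fell. Between the knockdowns, si mH2A1.1 samples were higher in all 5 proliferation markers, 3 myoblast markers (Pax7, Myf5 and Des), 4 myotube markers (Ckm, Tnnt3, Tnnc2 and Actn2), Fap and Dmp1, and lower in 3 fibroblast markers (Dpt, Lum and Pdgfrb), 2 myotube markers (Myog and Mybph) and Runx2. No chondrocyte marker was called in any comparison. Of all tested genes, 4.93% fell and 6.18% rose with si mH2A1.1, and 0.982% fell and 1.37% rose with si mH2A1.2. Between the knockdowns 12.0% of all tested genes were higher and 10.5% lower in si mH2A1.1. With a replicate block, a term for the replicate number in the model, more markers were called with si mH2A1.1: Mki67, Top2a and Ccnb1 of the proliferation list (adjusted p = 0.00815, 0.0246 and 0.0304), Pax7, Cdh15 and Des of the myoblast list (0.0314, 0.00797 and 0.0135) and Ckm (0.0211) rose, and Dpt (0.0134), Myh3 (0.0342) and Mybph (0.0311) fell. The block added the falls of Ckm (0.0132) and Dmp1 (0.0499) with si mH2A1.2, and Cdh15 (0.0119) and Sox9 (0.0469) as higher and Dcn (0.0233) as lower in si mH2A1.1 than in si mH2A1.2. Over all 19545 tested genes the block took the calls with si mH2A1.1 from 2171 to 4065. It took those with si mH2A1.2 from 460 to 1005, and those between the knockdowns from 4397 to 5674. The part of these marker shifts in the collagen values was not tested. In bulk RNA, fewer cells of a type and less RNA per cell cannot be told apart.

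Collagen transcripts were a sizeable share of these libraries, and their total was lower in si mH2A1.1 and higher in si mH2A1.2 than in si Ctrl. The 44 genes together made up 19678, 23444 and 23463 CPM in si Ctrl. They made up 9510, 14080 and 11208 CPM in si mH2A1.1, and 42492, 34348 and 29938 CPM in si mH2A1.2. The 3 groups did not overlap, and the means were 22195 ± 2180, 11599 ± 2310 and 35593 ± 6369 CPM (SD, n = 3 each). As a share of all counts these were 2.20%, 1.18% and 3.50%. Col1a1 and Col3a1 together held 51.9% ± 2.3, 39.9% ± 3.51 and 53.6% ± 0.226 of collagen CPM in the same order (SD, n = 3). The totals thus weigh these 2 genes most, and they are not scaled by length. Fibrillar genes held most of the total in every group, 77.7% ± 0.956 of collagen CPM in si Ctrl, 71.4% ± 2.47 in si mH2A1.1 and 76.8% ± 0.101 in si mH2A1.2 (SD, n = 3). The network class took 7.25% ± 0.338, 12.3% ± 2.86 and 6.41% ± 0.389 in the same order. Its own sum in si mH2A1.1, 1291 to 1429 CPM, overlapped that of si Ctrl, 1399 to 1791 CPM.

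**Figure D1:**
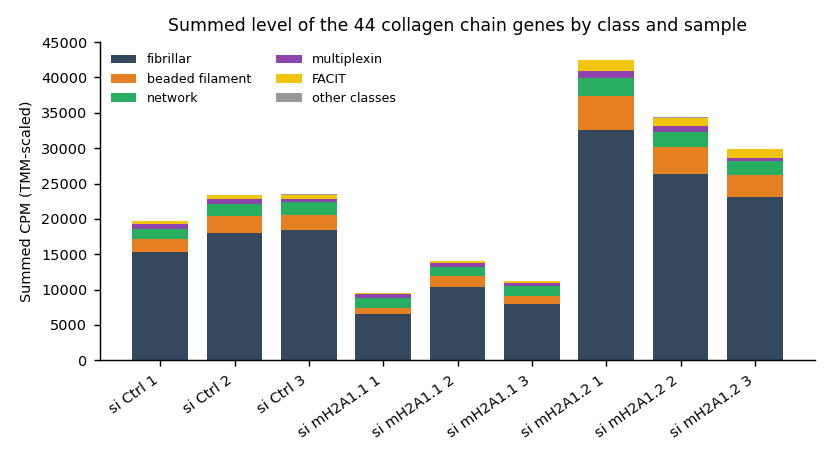
Summed level (CPM, TMM-scaled) of the 44 collagen chain genes in each of the 9 samples, stacked by class; each bar is 1 sample. The si mH2A1.1 bars end between 9510 and 14080 CPM, the si Ctrl bars between 19678 and 23463 CPM and the si mH2A1.2 bars between 29938 and 42492 CPM.

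Per length, the order of the highest chains depended on the length used. By the union of a gene's exons, in si Ctrl the highest levels were those of Col3a1 (875.7 ± 85.6 CPM per kb of exon, SD, n = 3), Col1a1 (448.8 ± 110.6), Col1a2 (193.1 ± 12.0), Col5a1 (192.2 ± 2.94) and Col6a1 (164.2 ± 39.7 CPM per kb), and the last 3 lay within their spread of each other. In si mH2A1.1 Col3a1 stayed first at 418.9 ± 107.5 CPM per kb, while Col1a1 came to 86.3 ± 43.9 CPM per kb, below Col1a2 at 118.1 ± 21.9 CPM per kb by less than the spread. In si mH2A1.2 the means of Col1a1 (1192.8 ± 225.4 CPM per kb) and Col3a1 (1143.8 ± 189.8 CPM per kb) differed by less than either SD. Spread in this paragraph is the SD of each gene between samples. Genes read in the same libraries can vary together, so it does not measure the spread of their difference. By the longest transcript, Col3a1 was first in every group, at 1545 ± 150.9, 739.1 ± 189.7 and 2017.8 ± 334.9 CPM per kb in si Ctrl, si mH2A1.1 and then si mH2A1.2 samples (SD, n = 3), and Col1a1 stood at 496.7 ± 122.4, 95.5 ± 48.6 and 1320.2 ± 249.5 CPM per kb. The near-equal levels of Col1a1 and Col3a1 in si mH2A1.2 thus held only for the exon union. By this length Col1a2 was at 448.7 ± 27.8 CPM per kb in si Ctrl, within the spread of Col1a1, and at 274.3 ± 51 CPM per kb in si mH2A1.1, above Col1a1 by more than the spread. In each si mH2A1.1 sample Col1a1 lay below Col1a2 by either length. Col5a2 (189.4 ± 16.5 CPM per kb) took the place of Col6a1 (175.4 ± 42.5) among the 5 highest in si Ctrl by the longest transcript, a difference within their spread. The 7 members too low to test were Col2a1, Col4a3, Col6a5, Col6a6, Col9a1, Col9a2 and Col13a1, with at most 26 counts in any sample. They include the cartilage chains of types II and IX.

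With si mH2A1.1, 12 of the 37 tested collagen genes fell and 3 rose against si Ctrl. Of all tested genes 4.93% fell and 6.18% rose in this comparison. The median log2 fold change was -0.40 over the 37 collagen genes and -0.01 over all tested genes. With si mH2A1.2, 3 collagen genes rose and 1 fell against si Ctrl, where 1.37% of all tested genes rose and 0.982% fell. The median log2 fold change was 0.47 over the collagen genes. With the replicate block added, 7 collagen genes rose and 1 fell with si mH2A1.2, while the calls over all 19545 tested genes went from 460 to 1005. Set directly against each other, si mH2A1.1 samples were lower than si mH2A1.2 samples in 18 collagen genes and higher in 4, against 10.5% and 12.0% of all tested genes, with a median log2 fold change of -0.68.

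**Figure D2:**
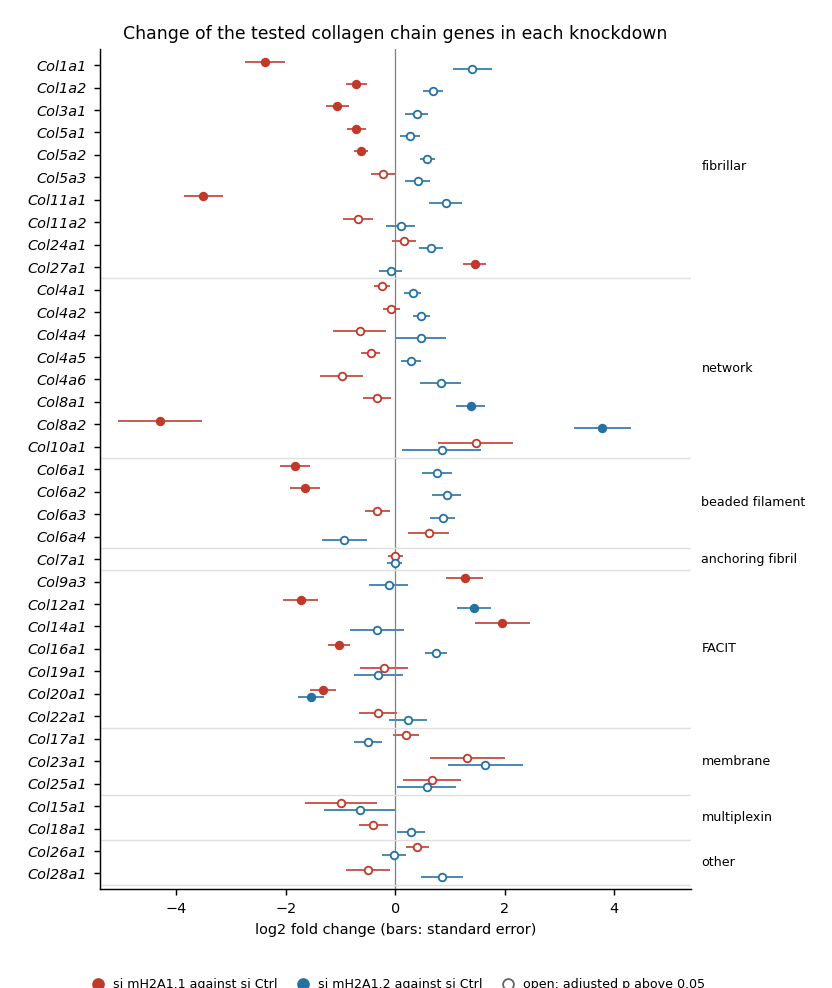
Log2 fold change against si Ctrl (points) with its standard error (bars) for the 37 tested collagen chain genes, grouped by class, with si mH2A1.1 in red and si mH2A1.2 in blue; filled points had an adjusted p of 0.05 or less. With si mH2A1.1, 12 genes are filled left of 0 and 3 right of it, and with si mH2A1.2, 1 is filled left and 3 right.

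Among the fibrillar genes, 6 of 10 tested fell with si mH2A1.1 and 1 rose. Col1a1 and Col1a2 encode the chains of type I collagen, the main collagen of bone, tendon and scar. Col1a1 (ENSMUSG00000001506, chr11:94936224-94953042, + strand) was at 2108, 3332 and 3396 CPM in si Ctrl, at 268.5, 843.3 and 587.7 CPM in si mH2A1.1 and at 9381, 7670 and 6435 CPM in si mH2A1.2. The 3 groups did not overlap, and the control numbered 1 was the lowest of its group. Col1a1 fell 5.2-fold with si mH2A1.1 (log2 fold change -2.38 ± 0.37, adjusted p = 0.00558), and this call held without each of the 9 samples in turn. Under si mH2A1.2 Col1a1 had a log2 fold change of 1.41 ± 0.36, which missed the threshold (adjusted p = 0.0762) and passed it with the replicate block (adjusted p = 0.0426). This rise also passed in DESeq2 (adjusted p = 0.00095). The paper's own RNA-seq analysis, done with DESeq2, places Col1a1 among the genes that the knockdowns moved in opposite directions. There macroH2A1.1 depletion decreased Col1a1 and macroH2A1.2 depletion increased it. The paper then reports the same opposing changes by RT-qPCR.

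Col1a2, the partner chain, had smaller fold changes. Its level was 2405, 2546 and 2249 CPM in si Ctrl, 1230, 1765 and 1407 CPM in si mH2A1.1 and 4806, 3740 and 3091 CPM in si mH2A1.2. It fell 1.64-fold with si mH2A1.1 (log2 fold change -0.71 ± 0.19, adjusted p = 0.0386), and its si mH2A1.2 value was 0.69 ± 0.19 on the same scale (adjusted p = 0.0917). The si mH2A1.2 change passed in DESeq2 (adjusted p = 0.006). The ratio of Col1a1 to Col1a2, per kb of exon, was 1.66, 2.48 and 2.86 in si Ctrl, 0.413, 0.905 and 0.791 in si mH2A1.1, and 3.70, 3.88 and 3.94 in si mH2A1.2. The ratios of the groups did not overlap. The gene models set their level, since per kb of the longest transcript the means were 1.11, 0.335 and 1.83 in place of 2.33, 0.703 and 3.84, but not their order.

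The chain pairs of types IV, V and VI varied less between the groups. The mean ratio of Col6a1 to Col6a2 was 3.95 ± 0.382, 3.52 ± 0.424 and 3.65 ± 0.647 (SD, n = 3) in the 3 groups in the same order as before, and that of Col5a1 to Col5a2 was 1.48 ± 0.145, 1.38 ± 0.0820 and 1.18 ± 0.234. The 3 groups overlapped in the type VI ratio. The ratio of Col4a1 to Col4a2 was 1.33 ± 0.0275, 1.18 ± 0.0405 and 1.19 ± 0.00809, a small difference in which every knockdown sample lay below every control.

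**Figure D3:**
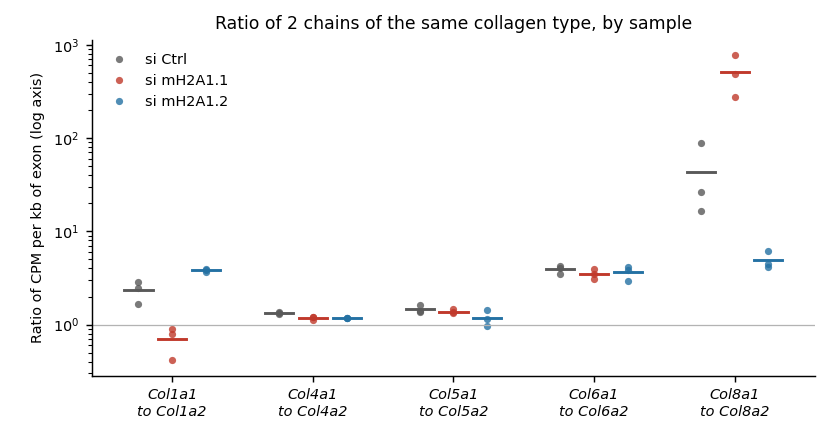
Ratio of CPM per kb of exon (log axis) between chains of the same collagen type in each sample (points), with the mean of each group (bars). The Col1a1 to Col1a2 and Col8a1 to Col8a2 ratios separate the 3 groups, while the Col6a1 to Col6a2 ratios of the groups overlap.

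Type III collagen accompanies type I in soft tissue, and type V controls the width of its fibrils. Col3a1 (ENSMUSG00000026043, chr1:45311538-45349706, + strand) was at 7697, 8730 and 9361 CPM in si Ctrl, 3187, 5262 and 3888 CPM in si mH2A1.1 and 13270, 10789 and 9622 CPM in si mH2A1.2. It fell 2.09-fold with si mH2A1.1 (log2 fold change -1.06 ± 0.21, adjusted p = 0.0142), and its log2 fold change of 0.39 ± 0.21 with si mH2A1.2 missed the threshold (adjusted p = 0.413). Col5a1 and Col5a2 fell with si mH2A1.1 by 0.71 ± 0.18 and 0.63 ± 0.13 on the log2 scale (adjusted p = 0.0351 and 0.0181). With si mH2A1.2 Col5a2 had a log2 fold change of 0.59 ± 0.13 at an adjusted p of 0.0503, which became 0.0295 with the replicate block and 0.000361 in DESeq2. In every one of these genes the si mH2A1.1 samples lay below all si Ctrl samples.

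Several of these calls were lost when 1 sample was left out. The calls of Col1a2 and Col5a1 with si mH2A1.1 were lost without any 1 of 6 samples (each si Ctrl sample, si mH2A1.1 replicates 1 and 3, and si mH2A1.2 replicate 2), with adjusted p up to 0.142 and 0.13. That of Col5a2 was lost without si Ctrl replicate 2 or 3 or si mH2A1.1 replicate 1 or 3 (up to 0.0681). That of Col3a1 was lost without si Ctrl replicate 2 or si mH2A1.1 replicate 1 or 3 (up to 0.0612).

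Col11a1 (ENSMUSG00000027966, chr3:114030540-114220718, + strand), a chain of the fibril-nucleating type XI collagen of cartilage, was low in these cells and fell the most of the fibrillar genes. It was at 6.75, 9.46 and 13.8 CPM in si Ctrl, 0.445, 1.09 and 1.08 CPM in si mH2A1.1 and 20.4, 14.4 and 21.9 CPM in si mH2A1.2. It fell 11.4-fold with si mH2A1.1 (log2 fold change -3.51 ± 0.36, adjusted p = 0.00148, kept without each sample in turn). Under si mH2A1.2 it had a log2 fold change of 0.92 ± 0.30 (adjusted p = 0.164).

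Col27a1 (ENSMUSG00000045672, chr4:63214004-63334991, + strand), a fibrillar chain of developing cartilage, went the other way. It was at 12.7, 10.2 and 9.75 CPM in si Ctrl and at 35.3, 27.2 and 26.7 CPM in si mH2A1.1. Its si mH2A1.2 samples, at 13.7, 9.29 and 7.95 CPM, overlapped the controls. Col27a1 rose 2.74-fold with si mH2A1.1 (log2 fold change 1.45 ± 0.21, adjusted p = 0.00429, kept without each sample in turn), and under si mH2A1.2 it had a log2 fold change of -0.08 ± 0.21. Its longest Gly-X-Y run, 217 triplets, and that of Col24a1, 216 triplets, were the shortest of the class. Col5a3, Col11a2 and Col24a1 were called in no comparison, with log2 fold changes between -0.68 and 0.16 with si mH2A1.1 and between 0.10 and 0.66 with si mH2A1.2. With the replicate block Col11a2 was called lower with si mH2A1.1 (adjusted p = 0.0101) and, together with Col5a3, lower with si mH2A1.1 than with si mH2A1.2 (0.00266 and 0.0455).

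**Figure D4:**
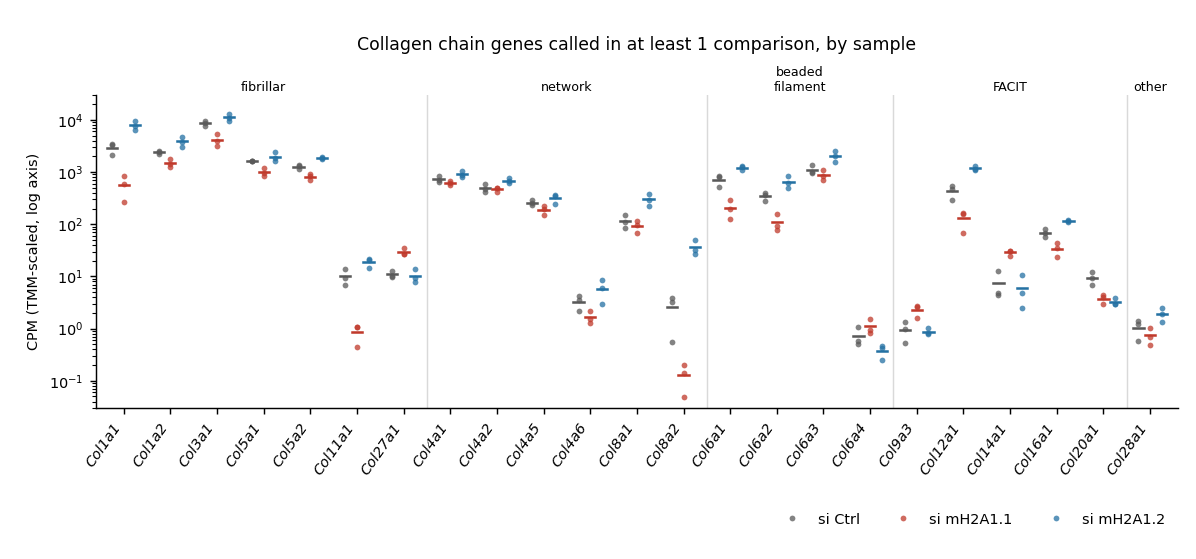
CPM (log axis) of the 23 collagen chain genes called in at least 1 of the 3 comparisons, by class; points are samples and bars are group means. Most si mH2A1.1 points lie lowest and most si mH2A1.2 points highest, with Col27a1, Col6a4, Col9a3 and Col14a1 highest in si mH2A1.1 and Col20a1 highest in si Ctrl.

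In the network class, type VIII chains, found in vessel walls and in the membrane beneath the corneal endothelium, carried the calls against si Ctrl. Col8a2 (ENSMUSG00000056174, chr4:126286793-126314330, + strand) was at 0.562, 3.30 and 3.89 CPM in si Ctrl, 0.0494, 0.198 and 0.138 CPM in si mH2A1.1 and 49.1, 27.2 and 31.5 CPM in si mH2A1.2. The 3 groups did not overlap, and the si mH2A1.1 samples held only 2, 8 and 6 counts. Col8a2 fell with si mH2A1.1 (log2 fold change -4.30 ± 0.76, adjusted p = 0.00916) and rose 13.9-fold with si mH2A1.2 (log2 fold change 3.79 ± 0.52, adjusted p = 0.0106). The fall missed the threshold in limma-voom (adjusted p = 0.0517). Its size is uncertain at so few counts.

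Col8a1, which shares a type with Col8a2, stood at 85.9, 150.6 and 111.8 CPM in si Ctrl, 66.8, 95.1 and 115.8 CPM in si mH2A1.1 and 386.2, 295.6 and 226.6 CPM in si mH2A1.2. It rose 2.61-fold with si mH2A1.2 (log2 fold change 1.38 ± 0.26, adjusted p = 0.0286), and its log2 fold change with si mH2A1.1 was -0.33 ± 0.26 (adjusted p = 0.431). The rise was lost without si Ctrl replicate 1 or 3 or si mH2A1.2 replicate 1 or 2 (adjusted p up to 0.104). Per kb of exon, Col8a1 exceeded Col8a2 by ratios of 16.5 to 87.6 in si Ctrl, 275.9 to 775.4 in si mH2A1.1 and 4.12 to 6.22 in si mH2A1.2.

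The basement membrane chains Col4a1 and Col4a2, the most abundant type IV pair, were not called against si Ctrl. Col4a1 was at 634.6, 717.9 and 855.0 CPM in si Ctrl, 684.3, 554.9 and 626.3 CPM in si mH2A1.1 and 1051, 822.1 and 879.3 CPM in si mH2A1.2. The log2 fold changes of Col4a1 and Col4a2 were -0.24 ± 0.15 and -0.07 ± 0.15 with si mH2A1.1, and 0.32 ± 0.15 and 0.48 ± 0.15 with si mH2A1.2. DESeq2 called Col4a2 higher with si mH2A1.2 (adjusted p = 0.0476). Both chains were lower with si mH2A1.1 than with si mH2A1.2, by 0.56 and 0.55 on the log2 scale (adjusted p = 0.0229 and 0.0291). These last calls were lost without si mH2A1.1 replicate 2 or 3 or si mH2A1.2 replicate 1 in Col4a1, and without any si mH2A1.1 sample or si mH2A1.2 replicate 1 or 3 in Col4a2 (adjusted p up to 0.0650 and 0.0762).

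Col4a5 and Col4a6, X-linked chains of type IV, were lower with si mH2A1.1 than with si mH2A1.2 (log2 fold changes -0.74 ± 0.18 and -1.81 ± 0.39, adjusted p = 0.0156 and 0.00962). The Col4a5 call was lost without si mH2A1.1 replicate 1 or si mH2A1.2 replicate 2 (adjusted p up to 0.0675). Against si Ctrl neither was called, but Col4a6, with a log2 fold change of -0.98 ± 0.39 with si mH2A1.1, was called with the replicate block (adjusted p = 0.0288). Col4a4 and Col10a1, with at most 30 counts in a sample, were called in no comparison.

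Of the type VI chains, abundant around muscle fibres, Col6a1 and Col6a2 fell with si mH2A1.1. Col6a1 (ENSMUSG00000001119, chr10:76708792-76726168, - strand) was at 519.0, 803.4 and 835.1 CPM in si Ctrl, 124.9, 287.2 and 196.1 CPM in si mH2A1.1 and 1326, 1232 and 1102 CPM in si mH2A1.2. Col6a1 fell 3.55-fold with si mH2A1.1 and Col6a2 3.15-fold (log2 fold changes -1.83 ± 0.28 and -1.65 ± 0.28, adjusted p = 0.00526 and 0.00735), and both calls held without each sample in turn. The third main chain, Col6a3, was at 994.4, 1354 and 961.0 CPM in si Ctrl, 695.7, 1114 and 831.5 CPM in si mH2A1.1, and 2515, 1992 and 1528 CPM in si mH2A1.2. Its si mH2A1.1 samples overlapped the controls, and its log2 fold change was -0.33 ± 0.23 (adjusted p = 0.370).

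Under si mH2A1.2 the log2 fold changes of Col6a1, Col6a2 and Col6a3 were 0.76 ± 0.27, 0.94 ± 0.27 and 0.87 ± 0.23, and none passed the threshold (adjusted p = 0.199, 0.113 and 0.0847). With the replicate block that of Col6a3 did (adjusted p = 0.0406). DESeq2 called Col6a2 and Col6a3 higher (adjusted p = 0.0128 and 0.00511). The 3 chains were lower with si mH2A1.1 than with si mH2A1.2 (log2 fold changes -2.59 ± 0.29, -2.59 ± 0.29 and -1.19 ± 0.23). Col6a4, at most 1.54 CPM, was higher with si mH2A1.1 than with si mH2A1.2 (log2 fold change 1.55 ± 0.40, adjusted p = 0.0199), a call lost without si mH2A1.1 replicate 3 or si mH2A1.2 replicate 1 or 2 (adjusted p up to 0.0760).

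The FACIT class was split. Col12a1 (ENSMUSG00000032332, chr9:79598991-79718831, - strand), which coats type I fibrils in tendon and muscle fascia, was at 292.3, 544.9 and 472.8 CPM in si Ctrl, 69.3, 158.7 and 166.0 CPM in si mH2A1.1 and 1316, 1103 and 1128 CPM in si mH2A1.2. The groups did not overlap. It fell 3.32-fold with si mH2A1.1 (log2 fold change -1.73 ± 0.32, adjusted p = 0.0108, kept without each sample in turn) and rose 2.71-fold with si mH2A1.2 (log2 fold change 1.44 ± 0.31, adjusted p = 0.0454). The rise was lost without any 1 sample other than si mH2A1.1 replicate 1 (adjusted p up to 0.149), and in limma-voom (adjusted p = 0.0636).

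Col16a1, a fibril-associated chain of several connective tissues, was at 56.2, 81.7 and 69.4 CPM in si Ctrl, 23.2, 43.2 and 35.6 CPM in si mH2A1.1 and 122.3, 115.6 and 111.5 CPM in si mH2A1.2. It fell 2.03-fold with si mH2A1.1 (log2 fold change -1.02 ± 0.20, adjusted p = 0.0150), a call lost without si Ctrl replicate 2 or si mH2A1.1 replicate 3 (adjusted p up to 0.0622). Under si mH2A1.2 Col16a1 had a log2 fold change of 0.75 ± 0.20, which missed the threshold (adjusted p = 0.0886) and passed it with the replicate block (adjusted p = 0.0310). This rise also passed in DESeq2 (adjusted p = 0.0133).

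Col20a1 (ENSMUSG00000016356, chr2:180986535-181018363, + strand) was the collagen gene that fell in both knockdowns. Its level was 12.0, 6.80 and 9.23 CPM in si Ctrl, 2.94, 4.32 and 3.96 CPM in si mH2A1.1 and 2.95, 3.78 and 2.90 CPM in si mH2A1.2, so every knockdown sample lay below every control. The log2 fold changes were -1.32 ± 0.24 (adjusted p = 0.00958) and -1.54 ± 0.24 (adjusted p = 0.0153). The second was lost without si Ctrl replicate 1 or 3 or si mH2A1.2 replicate 1 (adjusted p up to 0.0586). Col20a1 shares 79 bp of exon on the same strand with another annotated gene, BX649560.1, so reads there may be split between them.

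Col14a1, a FACIT chain of tendon and skin, and Col9a3, a cartilage chain, rose with si mH2A1.1. Col14a1 was at 12.9, 4.45 and 4.87 CPM in si Ctrl, 31.0, 30.5 and 24.8 CPM in si mH2A1.1, and 10.5, 4.75 and 2.50 CPM in si mH2A1.2. It rose 3.89-fold with si mH2A1.1 (log2 fold change 1.96 ± 0.50, adjusted p = 0.0333), and the si mH2A1.2 samples overlapped the controls. Col9a3 went from 1.34, 0.533 and 0.980 CPM in si Ctrl to 2.72, 1.58 and 2.60 CPM in si mH2A1.1 (log2 fold change 1.27 ± 0.34, adjusted p = 0.0382). Both rises were lost without si Ctrl replicate 2 or 3, si mH2A1.1 replicate 1 or 3 or si mH2A1.2 replicate 2 (adjusted p up to 0.122 and 0.13). Both genes were also higher with si mH2A1.1 than with si mH2A1.2 (log2 fold changes 2.29 ± 0.50 and 1.39 ± 0.34), which was lost in Col14a1 without si mH2A1.2 replicate 2 (adjusted p up to 0.0521), and in Col9a3 without si mH2A1.1 replicate 1 or 3 or si mH2A1.2 replicate 2 or 3 (up to 0.0634). Col19a1 and Col22a1, at most 1.95 CPM, were called in no comparison.

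The other classes showed few calls. Col7a1, the anchoring fibril chain of skin, was at 22.9 to 26.0 CPM in si Ctrl, 21.4 to 28.4 CPM in si mH2A1.1 and 21 to 27.7 CPM in si mH2A1.2, with log2 fold changes of 0.00 ± 0.14 and -0.01 ± 0.14. The membrane chains Col17a1, Col23a1 and Col25a1 and the multiplexins Col15a1 and Col18a1, the second known as the source of endostatin, were called in no comparison. Col23a1 was at 7.84, 5.20 and 2.58 CPM in si Ctrl, 18.3, 11.6 and 9.08 CPM in si mH2A1.1 and 35.1, 10.5 and 3.57 CPM in si mH2A1.2. In each group its highest level was in the sample numbered 1, and with the replicate block its log2 fold change of 1.32 ± 0.68 with si mH2A1.1 was called (adjusted p = 0.225 without the block and 0.0275 with it). Col17a1 was called higher, and Col18a1 lower, with si mH2A1.1 than with si mH2A1.2 only with the block (adjusted p = 0.0306 and 0.0226). Col26a1 was not called, and Col28a1, at most 2.53 CPM, was lower with si mH2A1.1 than with si mH2A1.2 (log2 fold change -1.36 ± 0.39, adjusted p = 0.0324), a call lost without si mH2A1.1 replicate 1 or 3 or si mH2A1.2 replicate 1 or 2 (adjusted p up to 0.119).

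Promoter windows, from 250 bases before to 50 after the RefSeq start on GRCm38.p6, were matched by symbol for 35 of the 44 genes. The 5 shown are those of Col3a1, Col11a1 and Col8a2, which fell with si mH2A1.1, Col27a1, which rose, and Col4a1, not called against si Ctrl. Capitals mark 3 motifs found on either strand. The TATA box was searched as TATAAA. The letters of the CCAAT box are its name. The GC box was searched as GGGCGG, and in Col8a2 a pair of GC boxes overlaps.

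Col3a1, chr1:45311288-45311587, + strand: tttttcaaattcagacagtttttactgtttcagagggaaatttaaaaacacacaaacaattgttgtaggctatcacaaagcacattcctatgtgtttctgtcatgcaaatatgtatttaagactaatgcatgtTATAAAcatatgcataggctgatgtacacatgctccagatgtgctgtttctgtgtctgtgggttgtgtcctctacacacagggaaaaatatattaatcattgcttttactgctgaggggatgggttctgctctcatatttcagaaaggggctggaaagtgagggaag

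Col11a1, chr3:114030290-114030589, + strand: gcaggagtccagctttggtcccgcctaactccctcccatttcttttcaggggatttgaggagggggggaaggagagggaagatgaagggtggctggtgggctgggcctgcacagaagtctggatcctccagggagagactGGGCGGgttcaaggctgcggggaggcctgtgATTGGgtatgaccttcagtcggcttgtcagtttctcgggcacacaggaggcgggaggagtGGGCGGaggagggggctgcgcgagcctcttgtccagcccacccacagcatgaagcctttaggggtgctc

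Col8a2, chr4:126286544-126286843, + strand: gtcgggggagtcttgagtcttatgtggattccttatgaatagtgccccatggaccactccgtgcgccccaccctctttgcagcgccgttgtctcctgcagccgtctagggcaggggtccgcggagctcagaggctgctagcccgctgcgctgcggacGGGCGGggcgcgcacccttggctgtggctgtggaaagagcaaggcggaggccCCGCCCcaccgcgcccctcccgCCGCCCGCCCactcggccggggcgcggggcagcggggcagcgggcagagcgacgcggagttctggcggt

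Col27a1, chr4:63215162-63215461, + strand: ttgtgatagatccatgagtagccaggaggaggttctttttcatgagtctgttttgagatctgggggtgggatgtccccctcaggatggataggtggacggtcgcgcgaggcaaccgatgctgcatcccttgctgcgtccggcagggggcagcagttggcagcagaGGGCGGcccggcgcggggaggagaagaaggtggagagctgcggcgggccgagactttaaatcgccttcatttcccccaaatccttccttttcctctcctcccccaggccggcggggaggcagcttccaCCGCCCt

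Col4a1, chr8:11312777-11313076, - strand: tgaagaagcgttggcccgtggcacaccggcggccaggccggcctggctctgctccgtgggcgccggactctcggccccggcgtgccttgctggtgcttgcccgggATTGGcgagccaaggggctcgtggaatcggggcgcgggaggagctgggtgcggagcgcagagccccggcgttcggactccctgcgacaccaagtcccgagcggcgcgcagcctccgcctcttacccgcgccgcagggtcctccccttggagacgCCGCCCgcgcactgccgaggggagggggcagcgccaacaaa

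The RefSeq start of Col27a1 lies 1408 bp from the GENCODE gene start, and the RefSeq starts of the other 4 lie within 1 bp of theirs. The Col3a1 window had 37.7% G and C and a TATA box, whereas the other 4 had 61.7 to 74.0% and none. A TATA box stood in 5 of the 35 collagen windows (14.3%) and in 13.6% of all 32851 windows of the same length. A CCAAT box stood in 34.3% and 37.4%, and a GC box in 62.9% and 35.7%. The E-box letters CANNTG stood in 54.3% and 72.3%, and the AP-1 letters TGANTCA in 2.86% and 7.81%. Median G and C content was 60% over the collagen windows and 52.7% over all. In the 9 windows of genes that fell with si mH2A1.1, 6 held a GC box, a share of 66.7%, close to that of all collagen windows. A match describes the letters of the window only.

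Genes that modify, fold, export and cross-link collagen were described beside the chains, from a list of 35 genes of which 32 were tested. Of these, 4 fell and 0 rose with si mH2A1.1 (18 had an unadjusted p under 0.05, and DESeq2 called 10 lower and 1 higher), and 2 rose and 0 fell with si mH2A1.2 (14 under 0.05, and DESeq2 called 8 higher and 0 lower). Over all tested genes 4.93% fell in the first comparison and 1.37% rose in the second, at the adjusted p of the main edgeR fit. The shares of all genes by unadjusted p or in DESeq2 are not given here. Those counts therefore have no background to be set against, in this paragraph or below. With the replicate block 9 fell and 1 rose with si mH2A1.1, and 8 rose with si mH2A1.2, while the calls over all genes went from 2171 to 4065 and from 460 to 1005. Between the knockdowns, 22 were lower and 0 higher in si mH2A1.1 than in si mH2A1.2 (26 under 0.05, and DESeq2 called 24 lower and 0 higher), at a median log2 fold change of -0.62, where 10.5% of all tested genes were lower.

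Sec24d, a coat protein of vesicles that carry procollagen out of the endoplasmic reticulum, was at 99.0, 144.1 and 117.6 CPM in si Ctrl, 57.3, 64.0 and 60.4 CPM in si mH2A1.1 and 115.6, 154.4 and 155.4 CPM in si mH2A1.2. It fell with si mH2A1.1 by 0.99 ± 0.15 on the log2 scale (adjusted p = 0.00544), kept without each sample in turn. Under si mH2A1.1 there were also falls of P3h2, a prolyl 3-hydroxylase, Plod2, which hydroxylates telopeptide lysines, and P3h4 (log2 fold changes -0.87 ± 0.22, -0.76 ± 0.20 and -0.40 ± 0.10, adjusted p = 0.0330, 0.0368 and 0.0368), and none held without each sample in turn. That of P3h2 was lost without si Ctrl replicate 2 or 3 or any si mH2A1.1 sample (adjusted p up to 0.119). Those of Plod2 and P3h4 were lost without any si Ctrl sample, si mH2A1.1 replicate 1 or 3 or si mH2A1.2 replicate 2 (up to 0.104 and 0.131). With si mH2A1.2 the genes that rose were Loxl3 and Loxl1, lysyl oxidases that start the cross-linking of collagen fibrils (log2 fold changes 0.86 ± 0.13 and 0.63 ± 0.14, adjusted p = 0.0132 and 0.0489). The first was lost without si Ctrl replicate 1 or si mH2A1.2 replicate 2 (adjusted p up to 0.0565), and the second without any si Ctrl or si mH2A1.2 sample or si mH2A1.1 replicate 3 (up to 0.149).

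Between the knockdowns the largest differences of this list were those of Lox, the founding lysyl oxidase (log2 fold change -1.71 ± 0.33, adjusted p = 0.00640), P3h2 (-1.26 ± 0.22) and, at the same size, P3h3 (-1.23 ± 0.24) and Sec24d (-1.23 ± 0.15). Lox was at 350.6, 554.5 and 583.0 CPM in si Ctrl, 139.9, 343.6 and 349.7 CPM in si mH2A1.1 and 794.2, 787.1 and 1151 CPM in si mH2A1.2. Its si mH2A1.1 samples lay below all others.

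**Figure D5:**
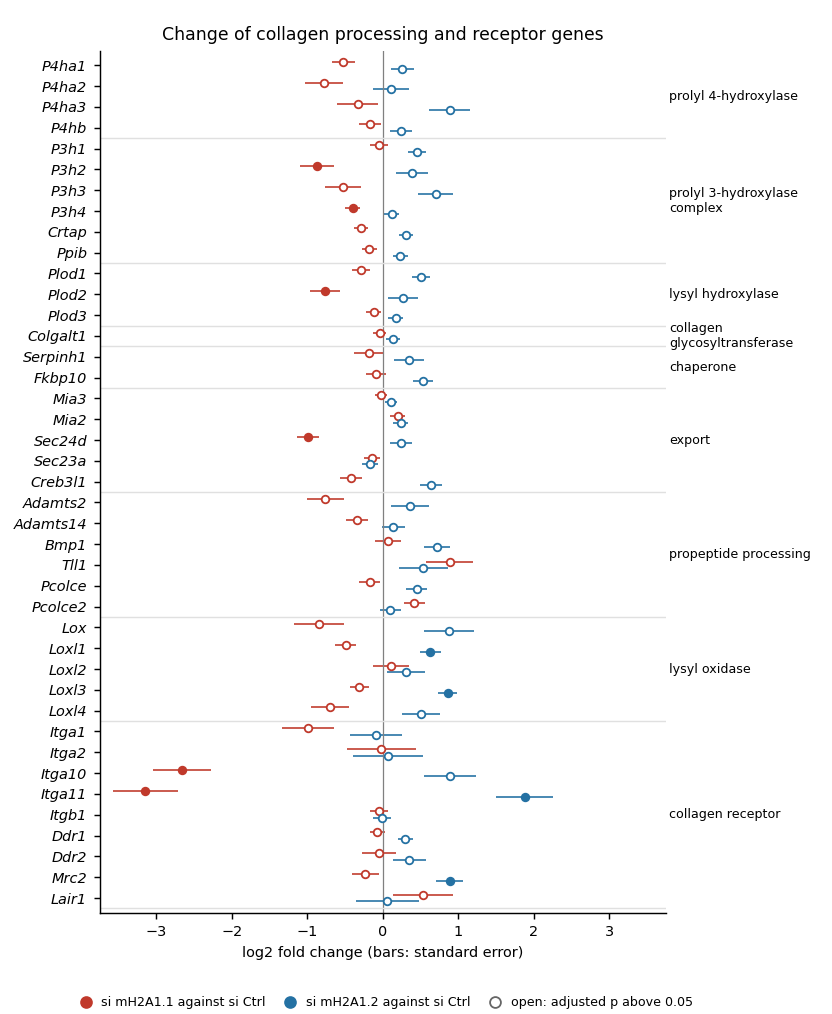
Log2 fold change against si Ctrl (points) with its standard error (bars) for 32 genes of collagen processing and 9 collagen receptor genes, with si mH2A1.1 in red and si mH2A1.2 in blue; filled points had an adjusted p of 0.05 or less. Filled points are 6 left of 0 with si mH2A1.1, Itga10 and Itga11 the farthest, and 4 right of 0 with si mH2A1.2.

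Of 9 genes of collagen receptors, 2 fell with si mH2A1.1 and 2 rose with si mH2A1.2, beside 4.93% and 1.37% of all tested genes in those directions. Itga11 encodes an integrin subunit that binds fibrillar collagen. It was at 7.17, 13.5 and 17.6 CPM in si Ctrl, 0.519, 2.00 and 1.80 CPM in si mH2A1.1 and 48.8, 39.3 and 53.4 CPM in si mH2A1.2. The groups did not overlap, with log2 fold changes of -3.15 ± 0.43 (adjusted p = 0.00383) and 1.88 ± 0.38 (adjusted p = 0.0347). The rise was lost without any si Ctrl or si mH2A1.2 sample or si mH2A1.1 replicate 3 (adjusted p up to 0.104). For Itga11 too, the paper reports opposing changes in the knockdowns, by RNA-seq and by RT-qPCR. Itga10, the subunit of another collagen-binding integrin, was at 13.8, 37.8 and 21.5 CPM in si Ctrl and 3.19, 4.74 and 3.59 CPM in si mH2A1.1 (log2 fold change -2.66 ± 0.38, adjusted p = 0.00421). Mrc2, an endocytic receptor for collagen fragments, rose with si mH2A1.2 (log2 fold change 0.89 ± 0.18, adjusted p = 0.0381), which was lost without any 1 sample other than si Ctrl replicate 3 and si mH2A1.1 replicate 1 (adjusted p up to 0.102). The gene of the shared integrin beta subunit, Itgb1, was not called in any comparison.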

How the data were processed

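Messenger RNA of 9 C2C12 samples was sequenced, 3 per condition. Per the paper's methods, the authors mapped the reads with Salmon to GRCm38 and imported them for DESeq2. The submitters' processing notes name mm10. The deposited table used here holds the authors' expected counts, Salmon's estimated counts per gene, as whole numbers without normalization. A deposited table of normalized values was not used here. Gene names, positions and lengths came from GENCODE M21, which named 52762 of the 52780 genes. The strand setting of the counting is not given in the sources used here, and intervals or floors of counts cover counting error only.

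All 9 samples entered 1 model in edgeR 4.0.16 (R 4.3.3), with TMM normalization, filterByExpr (19545 genes left), the legacy quasi-likelihood test and Benjamini-Hochberg adjustment over all tested genes. Calls needed an adjusted p of 0.05 or less, as in the paper's methods. The paper's plots of deregulated genes used cutoffs of 0.01 for p and 0.8 for log2 fold change, the stricter threshold here. Levels are CPM, and per kb values divide by the union of a gene's exons. Collagen classes, collagen processing genes, receptors and markers are lists chosen, like the members, with earlier results of these data known. Every called member, the 5 highest per length in si Ctrl, the untested members and at most the 3 largest rises and falls of the processing list per comparison were named by rule, and the other members to account for all 44. Alternatives were DESeq2 1.42.0, its size factors in edgeR, limma-voom 3.58.1, the newer quasi-likelihood form, 2 other filters, the 6 samples compared, a stricter threshold, a replicate block and each sample left out. Samples of the same replicate number deviated together, in all 9 pairs (r = 0.101 to 0.475), against -0.363 to 0.047 between different numbers. The library names in the labels run consecutively for samples sharing a number, but no label states a shared batch or day, so the pairing rests on both.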

Additional observations from a re-analysis of the deposited data

How the results depend on the processing

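No collagen gene changed direction under any alternative while called. Shares or totals over all genes are given only for the main fit and the replicate block. The counts of this section under other settings, and by unadjusted p, have no such background beside them. The 15 collagen calls with si mH2A1.1 became 7 at a stricter threshold (adjusted p under 0.01, log2 change of 0.8 or more either way) and 8 to 16 with 1 sample left out. The fewest, 8, came without si Ctrl replicate 2 or without si mH2A1.1 replicate 3, and 9 came without si mH2A1.1 replicate 1. The 4 calls with si mH2A1.2 depended most on the processing. They became 11 in DESeq2, 10 without a filter on low counts, 8 with the replicate block, 0 at the stricter threshold and 1 to 7 with 1 sample left out. DESeq2 added the rises of Col1a1, Col1a2, Col4a2, Col5a2, Col6a2, Col6a3 and Col16a1. In the main edgeR fit 17 collagen genes had an unadjusted p under 0.05 in this comparison. The calls were 1 without si Ctrl replicate 1 or 3 or si mH2A1.2 replicate 1, 2 without si mH2A1.2 replicate 2, and 7 without si mH2A1.1 replicate 1. The 22 calls between the knockdowns became 17 to 23 with 1 sample left out and 26 with the replicate block.

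Of the processing genes, the 4 calls with si mH2A1.1 became 11 in DESeq2, 8 without the filter, 10 with the replicate block, 1 at the stricter threshold and 1 to 10 with 1 sample left out. They were 1 without si Ctrl replicate 2 or 3 or si mH2A1.1 replicate 1 or 3, 2 without si mH2A1.2 replicate 2, and 10 without si mH2A1.1 replicate 2. The 2 calls with si mH2A1.2 became 8 in DESeq2, 6 without the filter, 8 with the replicate block, 1 in limma-voom, 1 with only the 6 samples compared, 0 at the stricter threshold and 0 to 3 with 1 sample left out, the 0 without si Ctrl replicate 1 or si mH2A1.2 replicate 2. In the main edgeR fit 14 processing genes had an unadjusted p under 0.05 in this comparison. The 22 calls between the knockdowns became 9 at the stricter threshold and 16 to 22 with 1 sample left out. Beyond the changes named here and beside each gene, the replicate block changed no other collagen call. The cause of these shifts was not tested.

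Depth limits Col8a2 in si mH2A1.1, where its 3 samples hold 16 counts in all, and the 7 untested genes. The summed collagen levels with DESeq2 size factors were 22191, 11599 and 35462 CPM in the 3 groups, controls first and si mH2A1.2 last. H2afy with si mH2A1.2 passed the threshold in DESeq2 (adjusted p = 0.0405).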

Other observations

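Several collagen genes lie side by side in the genome (GENCODE M21 on GRCm38). Col4a1 and Col4a2 on chromosome 8 are transcribed away from each other and their annotated starts overlap by 22 bp. Their log2 fold changes were -0.24 and -0.07 with si mH2A1.1 and 0.32 and 0.48 with si mH2A1.2. Col4a5 and Col4a6 on chromosome X, also divergent, start 1308 bp apart, with log2 fold changes of -0.45 and -0.98, and 0.29 and 0.83. Col3a1 and Col5a2 on chromosome 1 converge with 24614 bp between them (-1.06 and -0.63, then 0.39 and 0.59). Col6a1 and Col6a2 on chromosome 10 lie on the same strand, 85161 bp apart (-1.83 and -1.65, then 0.76 and 0.94). Whether adjacent collagen genes differ from others in this respect was not tested.

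Exons of other annotated genes overlap some members. On the same strand, the miRNA gene Gm47302, with 511 to 2114 counts per sample, shares 141 bp with Col3a1. On the opposite strand, Tcfl5, with 0 to 3 counts per sample, shares 234 bp with Col9a3, and Gm13372, with 87 to 440 counts, shares 113 bp with Col5a1.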
